A study of Mus musculus and Bos taurus with 6 samples.

Results

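The miR-378 family is the set of miRNA whose deposited entry carries the mouse or the bovine prefix and a name that begins with miR-378. By this rule 8 of the 3289 entries were members, 5 of 1750 in mouse (mmu-miR-378a-3p, mmu-miR-378a-5p, mmu-miR-378b, mmu-miR-378c and mmu-miR-378d) and 3 of 1539 in bovine (bta-miR-378, bta-miR-378b and bta-miR-378c). Small RNA was sequenced from whole mammary glands of FVB/N mice at day 12 of lactation (the mouse group, 2 libraries), from small RNA precipitated out of such glands with an antibody against Argonaute 2, the protein that holds a miRNA in the silencing complex (the AGO2 group, 2 libraries), and from mammary biopsies of Holstein cows at mid-lactation (the bovine group, 2 libraries). Each bovine library was a pool of 2 cows on the low forage diet, with a forage to concentrate ratio of about 46 to 54. The mouse glands came from 2 primiparous animals, the labels do not say which animal gave which library, and the sample numbers used here only name the libraries. With 2 libraries in a group, a p-value measures the spread between these libraries. The cows were multiparous. Mouse and AGO2 RNA were isolated with the same kit and bovine RNA with another. Species, kit, parity, biopsy or whole gland, and pooling changed together, so that they cannot be told apart.

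A miRNA is cut from a hairpin precursor, which has a 5p and a 3p arm. Usually the product of one arm is kept, and its seed, nucleotides 2 to 8, decides which messenger RNA it pairs with. The miR-378a hairpin lies in an intron of Ppargc1b, the gene of the coactivator PGC-1β, and on the same strand. PGC-1β drives mitochondrial and lipid metabolism, and both arms of miR-378a are known for counterbalancing it, the 3p arm through fatty acid oxidation genes such as Crat and the 5p arm through nuclear receptors of the oxidative programme. Oxidative muscle and fat are known for high miR-378a levels.

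Some members shared a seed, and the others each had a seed of their own. These sequences are shown because the seed, in capitals, sets who could share targets and the 3′ end sets how reads could be told apart.
mmu-miR-378c: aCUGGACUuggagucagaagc
mmu-miR-378d: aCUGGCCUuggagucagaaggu
mmu-miR-378b: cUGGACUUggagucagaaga
bta-miR-378c: aCUGGACUuggagucagaagu
bta-miR-378b: aCUUGACUuggagucagaaggc
The seed CUGGACU was shared by mmu-miR-378a-3p, mmu-miR-378c, bta-miR-378 and bta-miR-378c. These sequences differed from each other only at the 3′ end. Counted from 1 at the 5′ end, with the base of mmu-miR-378c first, mmu-miR-378d differed by A6C, inside the seed, and by C21G. bta-miR-378c differed by C21U. bta-miR-378b differed by G4U, inside the seed, and by C21G. mmu-miR-378b held 19 nt of the mmu-miR-378c sequence but started 1 nt further in, which moved its seed to UGGACUU. mmu-miR-378a-5p, the other arm of the miR-378a hairpin, had a seed of its own. The letter in a name therefore did not mark the same sequence in both species, since the miR-378b of mouse and that of cow had different seeds.

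The same mature stretch was placed on opposite arms of its hairpins. The RefSeq hairpins, of the mouse build GRCm38.p6, are shown with the mature miRNA in capitals.
Mir378b: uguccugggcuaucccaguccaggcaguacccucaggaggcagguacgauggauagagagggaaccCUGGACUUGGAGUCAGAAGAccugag
Mir378c: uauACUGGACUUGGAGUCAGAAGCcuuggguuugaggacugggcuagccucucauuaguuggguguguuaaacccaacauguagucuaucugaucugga
Mir378d: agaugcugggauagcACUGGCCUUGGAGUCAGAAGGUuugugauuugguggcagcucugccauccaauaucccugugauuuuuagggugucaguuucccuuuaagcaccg
mmu-miR-378b spanned nucleotides 67 to 86 of a hairpin of 92 nt, on the 3p side. mmu-miR-378c spanned nucleotides 4 to 24 of 99 and mmu-miR-378d nucleotides 16 to 37 of 110, both on the 5p side. The position column of the deposited files gave the same arms for these 3 miRNA. Of the 5 mouse members, 3 had an entry in the RefSeq table used here, and all 3 entries equalled the deposited sequence. Mir378b lay at chr11:88352773-88352864 on the plus strand, within an intron of Msi2, which is transcribed from the opposite strand. Mir378c lay at chr14:46954830-46954928 on the minus strand, within an intron of Samd4, also transcribed from the opposite strand. Mir378d lay at chr10:126710282-126710391 on the minus strand, and no annotated host gene overlapped it. The host gene Ppargc1b thus belonged to the miR-378a hairpin and not to the b, c and d hairpins.

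Total counts were 9299807 and 8391916 in the mouse libraries, 3909166 and 5041406 in the AGO2 libraries, and 9402483 and 10613807 in the bovine libraries. Levels are given as RPM, the usual scaling of a count by the total of its library. The limit that a count of 0 allows, 3 counts, lay between 0.283 and 0.767 RPM, and intervals and limits cover counting error only. Replicates lay further apart in mouse and AGO2 than in bovine, where each library was a pool of 2 cows. Among miRNA that reached 100 RPM in the group, 44 of 171 in mouse, 46 of 167 in AGO2 and 2 of 172 in bovine differed more than 2-fold between the libraries of their group. A read can be counted under several names, as 9 of 11 mouse sequences listed under more than 1 name had equal counts in every library. Sums over the family are therefore upper bounds.

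mmu-miR-378a-3p, the arm known for acting on fatty acid oxidation, was the most abundant member in every mouse and AGO2 library. It was counted 133407 and 90313 times in mouse, which gave 14345 and 10762 RPM, and reached 5983 and 4431 RPM in AGO2. Among all miRNA of the library it ranked 21 and 24 in mouse and 27 and 28 in AGO2. The AGO2 libraries lay below both mouse libraries. Means were 12554 ± 2534 RPM in mouse and 5207 ± 1097 RPM in AGO2 (SD, n = 2).

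mmu-miR-378c, which has the same seed, was the next most abundant member. It reached 4942 and 4658 RPM in mouse and 3834 and 2388 RPM in AGO2, with means of 4800 ± 201 and 3111 ± 1022 RPM (SD, n = 2). The groups did not overlap, but AGO2 sample 1 was closer to the mouse libraries than to AGO2 sample 2 on the ratio scale. Together, the miRNA with the seed CUGGACU summed to 19288 and 15420 RPM in mouse and to 9816 and 6819 RPM in AGO2.

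mmu-miR-378d, with its changed seed, and mmu-miR-378a-5p stood at like levels in the gland and far apart in AGO2. mmu-miR-378d reached 472 and 324 RPM in mouse and 142 and 88.5 RPM in AGO2. mmu-miR-378a-5p reached 442 and 360 RPM in mouse and 645 and 1485 RPM in AGO2. For mmu-miR-378d both AGO2 libraries were lower than both mouse libraries, whereas for mmu-miR-378a-5p both were higher. In mouse these miRNA held overlapping ranges, so that their order was not resolved. mmu-miR-378a-5p ranked 109 and 105 in mouse and 91 and 61 in AGO2, and it was the member on which the AGO2 libraries differed most among those above 10 RPM, by 2.3-fold.

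mmu-miR-378b was the least abundant mouse member. Its counts were 63 and 75 in mouse and 4 and 18 in AGO2, or 6.77, 8.94, 1.02 and 3.57 RPM. The exact binomial 95% interval of the lowest value ran from 0.279 to 2.62 RPM. The levels of miR-378a-3p, miR-378c and miR-378b formed an order that held in each of the 4 mouse-derived libraries, with mmu-miR-378d between miR-378c and miR-378b.

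**Figure D1:**
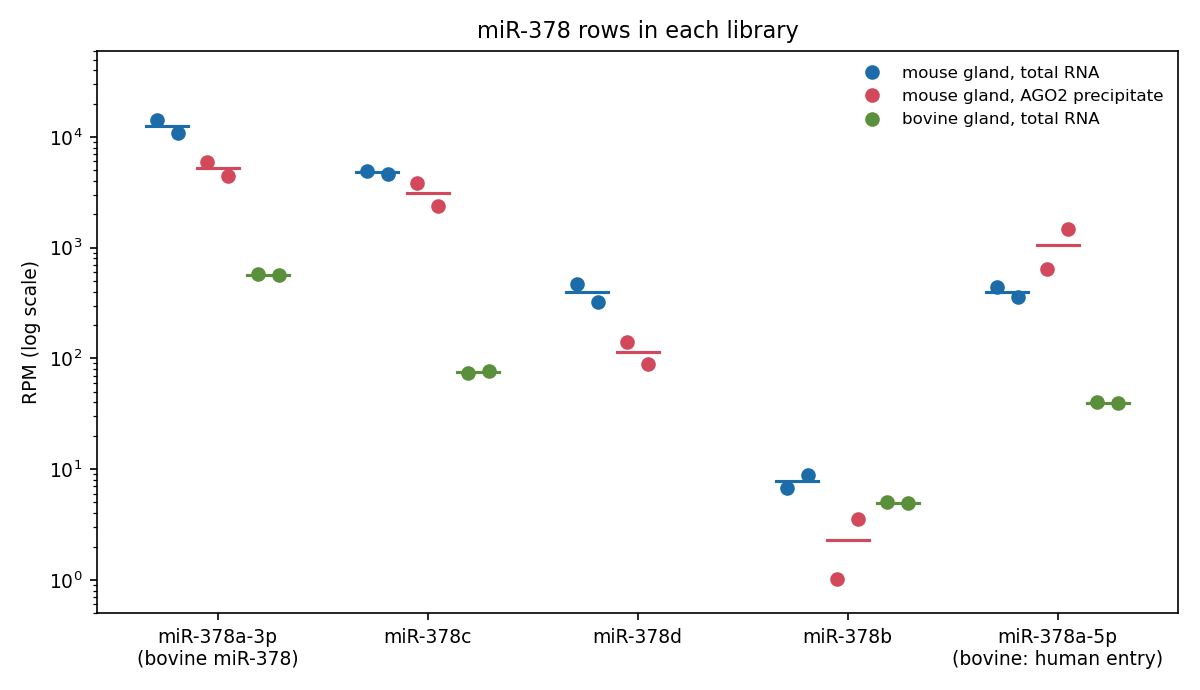
RPM on a log scale for each miR-378 member in the mouse, AGO2 and bovine libraries, with a point for each library and a line at the mean of 2. miR-378a-3p and miR-378d lie lower in AGO2 than in mouse and miR-378a-5p lies higher, while bovine miR-378, at 577 and 561 RPM, lies far below its mouse counterpart. The bovine point of miR-378a-5p is an entry with the human name, which is no member, and miR-378d has no bovine point.

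In bovine, bta-miR-378, which pairs by sequence with mmu-miR-378a-3p, was the most abundant member with 577 and 561 RPM and ranked 108 and 107. Its deposited position was 5p. It is treated here as the 3p counterpart because its sequence contains that of mmu-miR-378a-3p. bta-miR-378c reached 73.2 and 76.8 RPM and bta-miR-378b 5.00 and 4.90 RPM. The bovine pools differed by at most 1.05-fold on any member. An entry with the human name hsa-miR-378a-5p, no member by the rule, had the same sequence as mmu-miR-378a-5p and reached 40.0 and 39.9 RPM. The bovine levels thus ran in the order of bta-miR-378 over bta-miR-378c over bta-miR-378b and were each tight between pools.

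The first comparison asked which miRNA of the mouse gland were held by AGO2 to a greater or lesser extent than their share of the total small RNA. miR-378a-3p and miR-378d were lower in the AGO2 libraries and miR-378a-5p was higher, but no member passed the edgeR test as fitted without a replicate block. The study's own test, with DESeq2, listed miR-378a-5p as significantly enriched in AGO2. Of the 299 miRNA tested, those with a count above the filter of the study's methods in at least 1 of the 4 libraries, 27.8% passed at an adjusted p under 0.05 with edgeR's quasi-likelihood test and Benjamini-Hochberg adjustment, 15.4% as higher and 12.4% as lower in AGO2. Of the 5 mouse members, 4 passed the filter and 0 of these 4 passed the test. mmu-miR-378b was below the filter. At an unadjusted p under 0.05, 3 of the 4 passed, against 43.8% of all miRNA tested, and with DESeq2 2 of the 4 passed, against 39.1%. The RPM of both groups did not overlap for 4 of 4 members, against 73.2% of the miRNA tested, so that the lack of overlap did not set the members apart.

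In this test miR-378a-3p had a log2 fold change of -1.12 (SE 0.45, adjusted p = 0.0677 with edgeR). miR-378d had -1.64 (SE 0.64, adjusted p = 0.0622 with edgeR), the lowest of the family. miR-378c, with the same seed as miR-378a-3p, had -0.49 (SE 0.50, adjusted p = 0.456 with edgeR). miR-378a-5p had 1.59 (SE 0.65, adjusted p = 0.0684 with edgeR) and was the one member with a positive value. The median over all miRNA tested was -0.12, so that the sign of each member's value was the same relative to it.

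The calls of single members depended on the normalisation, on 1 library and on a replicate block. With the size factors of DESeq2 in edgeR, under which the median moved to -0.01, miR-378a-5p passed at an adjusted p of 0.0395. With library totals alone, under which it moved to -0.27, miR-378a-3p passed at an adjusted p of 0.0490 with edgeR. DESeq2 called miR-378a-5p (adjusted p = 0.0107) and miR-378d (adjusted p = 0.0215). Without AGO2 sample 1 the log2 fold change of miR-378a-5p was 2.43 with an adjusted p of 0.0189 from edgeR, and without AGO2 sample 2 it was 0.93. No member changed sign under any alternative run, and miR-378c was not called under any of them. Without AGO2 sample 2, miR-378c stood at -0.09 and so above the median of -0.22, whereas it lay below the median in the other leave-out fits.

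**Figure D2:**
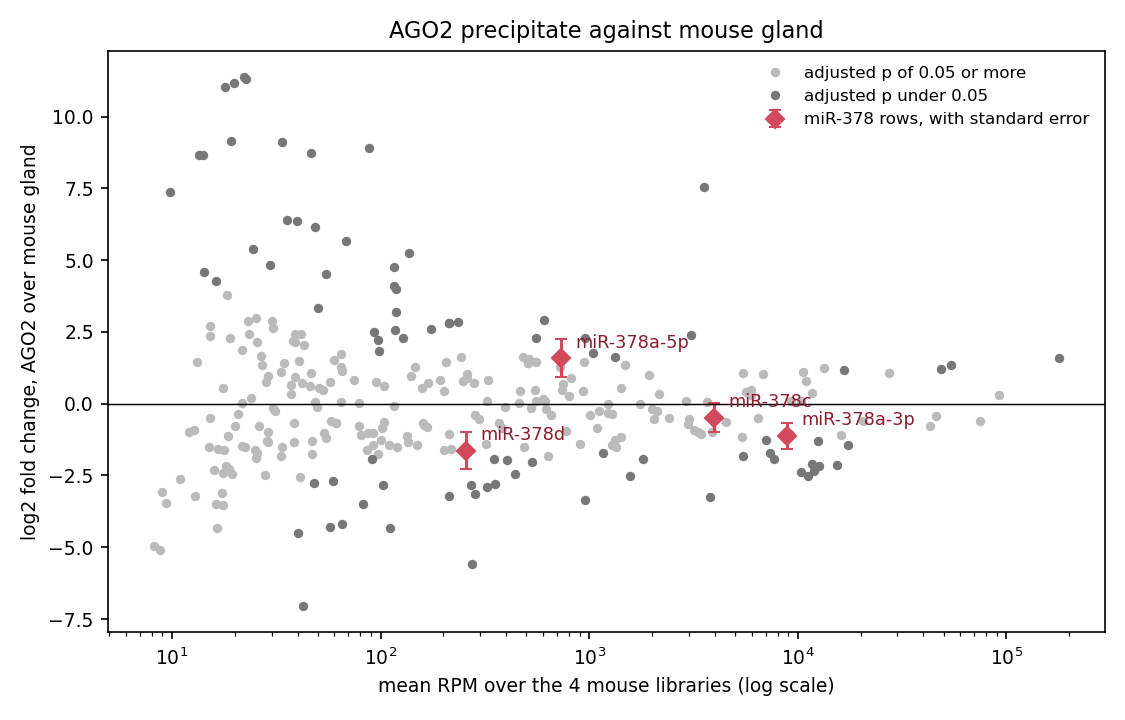
Log2 fold change of AGO2 over mouse against the mean RPM of the 4 libraries for the 299 miRNA tested, with dark points for those at an adjusted p under 0.05 and diamonds with standard errors for the miR-378 members. miR-378a-5p lies above 0 and miR-378d, miR-378c and miR-378a-3p below it, each among miRNA of like level that were and were not called.

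The arms of the miR-378a hairpin were compared within each library, which needs no scaling between libraries. In mouse 3.08 and 3.34 reads of miR-378a-5p were counted per 100 reads of miR-378a-3p. In AGO2 the values were 10.8 and 33.5, and in bovine 6.93 and 7.10. The bovine values set hsa-miR-378a-5p against bta-miR-378, taken as the 3p arm by its sequence and not by its deposited position. Both AGO2 libraries and both bovine libraries lay above both mouse libraries. As a share of both arms, the 5p arm took 2.99% (exact 95% interval 2.90 to 3.08) and 3.23% (3.12 to 3.35) in mouse, 9.73% (9.38 to 10.1) and 25.1% (24.6 to 25.6) in AGO2, and 6.48% (5.86 to 7.15) and 6.63% (6.03 to 7.27) in bovine. The ratio was 5.93-fold higher in AGO2 than in mouse and 2.19-fold higher in bovine than in mouse, as geometric means. The first value was 10.4 without AGO2 sample 1 and 3.36 without AGO2 sample 2. An exact two-sided permutation test of the log ratio gave p = 0.33 in both cases, the smallest that 2 libraries against 2 allow. The AGO2 value rested on libraries that lay far apart, whereas the bovine pools and the mouse libraries were close.

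The balance within the seed CUGGACU also differed between the groups. Per 100 reads of miR-378a-3p, miR-378c was counted 34.5 and 43.3 times in mouse and 64.1 and 53.9 times in AGO2. In bovine, bta-miR-378c was counted 12.7 and 13.7 times per 100 reads of bta-miR-378. The ranges of the groups did not overlap. miR-378d was counted 3.29 and 3.02 times per 100 reads of miR-378a-3p in mouse and 2.37 and 2.00 times in AGO2. The exact permutation test of each ratio against mouse again gave the smallest possible p of 0.33. Since miR-378a-3p and miR-378c differ only at the 3′ end, and reads were kept from 17 nt, the split between miR-378a-3p and miR-378c may hold reads that belong to either.

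**Figure D3:**
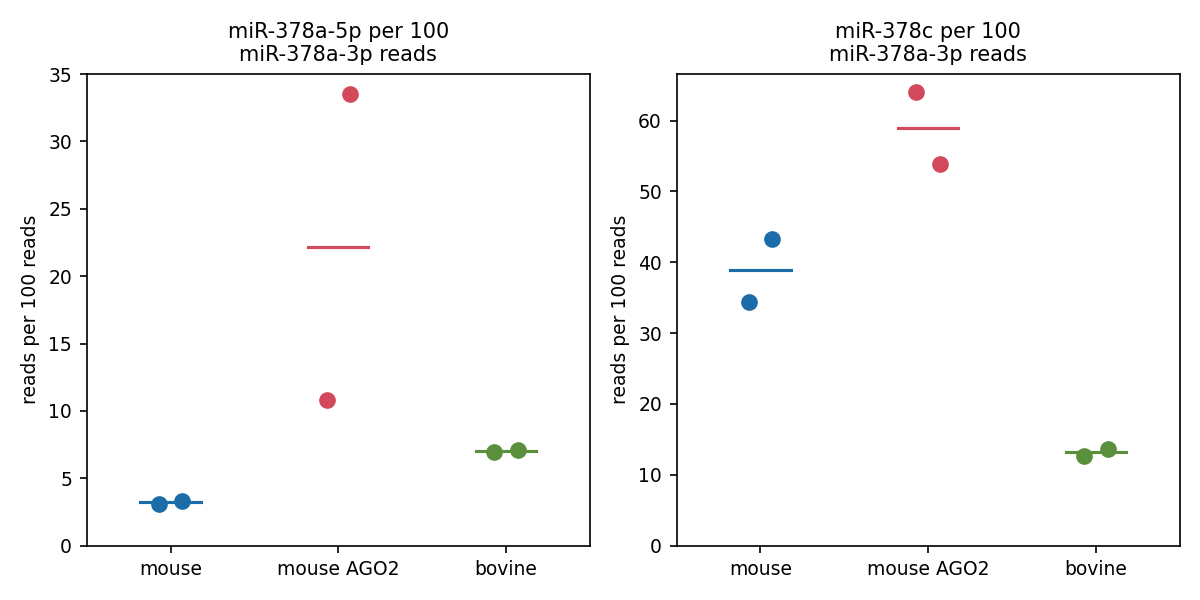
Reads of miR-378a-5p (left) and of miR-378c (right) per 100 reads of miR-378a-3p in each library of the mouse, AGO2 and bovine groups, with a line at the mean of 2. Both ratios are higher in AGO2 than in mouse, and bovine lies above mouse for miR-378a-5p and below it for miR-378c. The AGO2 libraries lie at 10.8 and 33.5 for miR-378a-5p.

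The second comparison asked which miRNA differ between the lactating glands of cow and mouse. The sequence counterparts of both miR-378a arms were lower in bovine. Species were paired by the mature sequence, identical or one within the other with at most 3 nt of difference in length. Of the 150 pairs that reached 100 RPM in at least 1 of the 4 libraries, 51.3% passed edgeR's quasi-likelihood test at an adjusted p under 0.05, 24% as higher and 27.3% as lower in bovine. The family had 2 pairs among them, the bovine side of the 5p pair being the entry with the human name, and 2 of 2 were called as lower. The remaining mouse members, miR-378b, miR-378c and miR-378d, were not in this test.

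bta-miR-378 stood at 577 and 561 RPM against 14345 and 10762 RPM of mmu-miR-378a-3p in mouse. Its log2 fold change was -4.60 (SE 0.32, adjusted p = 0.00104 with edgeR), a 24.2-fold lower level in bovine, and it ranked 7 of 150 from the lowest. The 5p arm stood at 40.0 and 39.9 RPM in bovine against 442 and 360 RPM in mouse. Its log2 fold change was -3.46 (SE 0.35, adjusted p = 0.00171 with edgeR), 11.0-fold lower, and it ranked 11 of 150 from the lowest. Every bovine value lay below every mouse value for both arms, but the groups did not overlap in 82% of the 150 pairs either. Both calls held under the alternatives that could pair them with 2 libraries in each group. Adjusted p ran from 4.77e-39 with DESeq2 to 0.00189 with edgeR on library totals for the 3p arm. For the 5p arm it ran from 1.33e-18 with DESeq2 to 0.00198 with edgeR on library totals. With a library left out included, the log2 fold change of the 3p pair ran from -4.83 to -4.42. That of the 5p pair ran from -3.70 to -3.27. The bovine sequence paired with the 3p arm is not identical to the mouse one in length, so that with identical sequences only this pair dropped out. It also dropped out when species were paired by name.

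The other members could be compared less directly. mmu-miR-378c and bta-miR-378c, which differ by C21U, pair by name alone, and so paired the log2 fold change was -6.37 (SE 0.36, adjusted p = 0.000233 with edgeR). When the reads of miR-378a-3p and miR-378c were added within each species, an alternative chosen after the data were seen, the log2 fold change was -4.89 (SE 0.32, adjusted p = 0.000873 with edgeR). For AGO2 over mouse the same sum gave -0.93 (SE 0.45, adjusted p = 0.10 with edgeR). The entries named miR-378b stood at 7.86 ± 1.53 RPM in mouse and 4.95 ± 0.0703 RPM in bovine (SD, n = 2), but their sequences carry different seeds and were not paired with each other. mmu-miR-378b did pair by sequence with the predicted bta-19_15227, which contains it and was counted 2 and 9 times. The seeds differ here too, since bta-19_15227 has CUGGACU and mmu-miR-378b has UGGACUU. This pair was below the filter, and in the fit without a filter its log2 fold change was -4.16 (SE 0.74, adjusted p = 2.16e-07 with edgeR). No bovine sequence paired with mmu-miR-378d. The family summed to 20208 and 16113 RPM in mouse, 10604 and 8396 RPM in AGO2, and 655 and 643 RPM in bovine. With the largest row of the shared seed plus miR-378a-5p in mouse and AGO2, and the largest row alone in bovine, the lower bounds were 14787 and 11122, 6628 and 5916, and 577 and 561 RPM. On either measure both bovine pools were lowest and both mouse libraries highest.

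**Figure D4:**
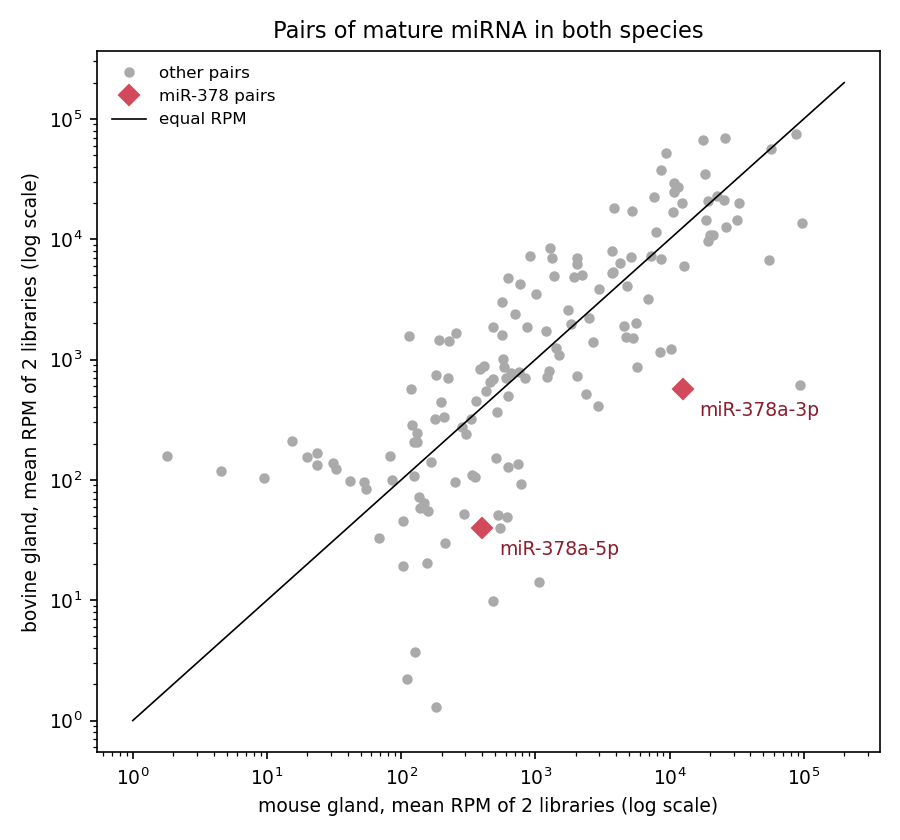
Mean RPM in bovine against mean RPM in mouse on log scales for the 150 pairs of mature miRNA tested, with a line of equal RPM. The miR-378a-3p and miR-378a-5p diamonds lie below the line, at bovine means of 569 and 39.9 RPM against mouse means of 12554 and 401 RPM.

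Markers of other cell types moved with both comparisons. In bulk tissue, fewer cells of a type and less RNA per cell cannot be told apart. For miRNA of skeletal muscle, a tissue known for miR-378a, 6 were summed in mouse and AGO2 and 5 in bovine, where no entry matched miR-133b-3p. The sum was 172 to 223 RPM in mouse, 30.2 to 89.9 RPM in AGO2 and 830 to 888 RPM in bovine. It was therefore highest in bovine, where miR-378a-3p was lowest, and miR-1a-3p made up most of it there, with 713 and 768 RPM. Of these, miR-133b-3p was at 0 in both mouse libraries, miR-206-3p in mouse sample 2, and miR-208b-3p in AGO2 sample 1 and both bovine pools. The lower muscle sum in AGO2 followed miR-1a-3p, whereas miR-133a-3p lay higher there than in mouse. miR-133b-3p also lay higher in AGO2, but in AGO2 sample 1 it was below the limit of 3 counts. The other muscle markers overlapped between mouse and AGO2. The 5 other lists had a count for each marker in every library. The 6 epithelial miRNA summed to 159803 to 188746 RPM in mouse, 338037 to 368284 in AGO2 and 77607 to 79458 in bovine. miR-200a-3p took most of the epithelial sum in AGO2, with 267861 and 255991 RPM. Its members did not move together. Against mouse, miR-200a-3p and miR-141-3p lay higher in AGO2, miR-200b-3p, miR-200c-3p and miR-429-3p lay lower, and in bovine miR-200c-3p and miR-205-5p lay higher although the sum was lower. The 5 miRNA of fibroblasts and smooth muscle summed to 54443 to 71185, 35114 to 37249 and 63692 to 78041 RPM, in the same order of groups. In AGO2 the lower sum followed miR-143-3p, whereas miR-199a-5p lay higher than in mouse and the other members of this list overlapped. The 2 endothelial miRNA summed to 24194 to 34265, 28819 to 29280 and 55972 to 62356 RPM. In AGO2 this sum joined a lower miR-126-3p, at 6776 and 6711 RPM against 16270 and 20468 in mouse, with a higher miR-126-5p, at 22503 and 22108 RPM against 7924 and 13797. The 3 erythroid miRNA summed to 6504 to 13343, 15527 to 32468 and 1098 to 1709 RPM. The 5 leukocyte miRNA summed to 1263 to 2123, 2351 to 2971 and 2553 to 3285 RPM, and they did not move together. Against mouse, miR-142-5p, miR-150-5p and miR-223-3p lay higher in AGO2, miR-155-5p lay lower and miR-142-3p overlapped. In bovine miR-142-5p, miR-150-5p and miR-155-5p lay higher, and miR-142-3p and miR-223-3p lay lower. The part of these shifts in the miR-378 values was not tested.

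Other miRNA known for a role in lipid, glucose or mitochondrial metabolism, a list of 22 outside the family, did not move one way. In AGO2 over mouse 16 were tested, 2 were higher and 4 lower, and the median log2 fold change was -0.52 against -0.12 over all miRNA. The 4 lower ones included miR-196a-5p, known from brown fat formation (-4.20, SE 0.91), miR-34a-5p, which represses Sirt1 (-3.34, SE 0.67), and miR-103-3p, known for insulin sensitivity (-2.17, SE 0.48). The higher ones were miR-33-5p, which lies in a gene of sterol control and represses cholesterol export (2.86, SE 0.70), and miR-455-3p, also known from brown fat (2.23, SE 0.69). The call of miR-455-3p was lost without a filter and without mouse sample 1, mouse sample 2 or AGO2 sample 1, with adjusted p of 0.289, 0.0919, 0.139 and 0.0737 from edgeR. That of miR-33-5p was lost without mouse sample 1 and that of miR-103-3p without AGO2 sample 2. These 6 calls among 16 stand beside the 27.8% called over all miRNA. Without mouse sample 1, which left 1 mouse library, fewer of the list were called, as over all miRNA.

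In bovine over mouse 12 of the list were tested, 1 was higher and 2 were lower, with a median log2 fold change of -0.18 against 0.08 over all pairs. The higher one was miR-499-5p, a miRNA of slow muscle fibres, at 104 and 106 RPM in bovine against 8.49 and 10.4 RPM in mouse (3.32, SE 0.39). It is also one of the muscle markers above. The lower ones were miR-335-5p, known from fat tissue (-3.09, SE 0.52), and miR-107-3p, the close relative of miR-103-3p (-1.80, SE 0.36). These 3 calls among 12 stand beside the 51.3% called over all pairs. Fits with a library left out rest on 1 library in a group. In them more of the list were called without a mouse library and fewer without a bovine pool, as over all pairs. The call lost without a bovine pool was that of miR-107-3p, with adjusted p of 0.0606 without the first and 0.199 without the second from edgeR. The value of miR-378a-3p, -4.60, lay below that of each miRNA of the list tested.

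The miRNA whose levels ran most like those of miR-378a-3p over the 6 libraries were picked by the root mean square difference of log2(RPM + 1), centred for each miRNA, among 155 miRNA with a bovine pair. miR-34b-5p was the closest, with a difference of 0.25. It stood at 137 and 116 RPM in mouse, 75.5 and 39.1 RPM in AGO2 and 4.36 and 3.11 RPM in bovine. miR-181a-5p followed at 0.63, with 53482 and 56807, 32443 and 40316, and 7124 and 6195 RPM in the same order. miR-96-5p came next at 0.73, with 565 and 994, 461 and 614, and 88.5 and 96.4 RPM. The 6 points are 3 groups of 2 libraries, and for each of these miRNA both bovine pools lay below the mouse and AGO2 libraries.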

How the data were processed

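Counts of reads per mature miRNA were deposited by the authors without normalisation and were used as such. The small RNA had been poly(A)-tailed, so that a terminal A of a read, such as that of mmu-miR-378b, cannot be told from the tail. Tails were trimmed by the authors, and reads of 17 to 28 nt were quantified with miRDeep2 on precursors of miRBase 20 and on predicted ones (genomes GRCm38 and UMD3.1). For predicted precursors, the score that the authors deposited is the log-odds from miRDeep2. The members and lists were chosen with earlier results of these data known. edgeR 4.0.16 (R 4.3.3) was run with TMM and the quasi-likelihood test over all miRNA that passed the filters, and SE is the log2 fold change over the square root of F. DESeq2 1.42.0, other scalings, filters, pairings, a replicate block and each library left out were alternatives. The procedure was also run on simulated data in which changes up and down were balanced. Unbalanced changes, which bear on the normalisation, were not simulated. Named beyond the members were the 3 highest and 3 lowest called of the metabolic list and the 3 most alike miRNA. Mouse miR-126 and miR-145 markers are listed under the letter a. The sequences of both miR-378a arms are not reported here. RefSeq and GENCODE served for mouse positions, and Python 3.11.15 with SciPy 1.17.1 for the rest.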

Additional observations from a re-analysis of the deposited data

Results flagged for a closer look

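A signal was found in data that the comparisons do not use. The deposited list of predicted bovine precursors held one, scored 5, whose mature sequence carries the seed CUGGACU, with 1777 reads pooled over the bovine samples, well above the limit of 3 counts. It is shown because it is the start of the shared stretch, without its 3′ end.
bta-22_21141: aCUGGACUuggagucag
The prediction spans 42 nt at chr22:55256489-55256530 of UMD3.1, on the minus strand, and the mature sequence has 17 nt, the shortest read length kept. It equals the first 17 nt of mmu-miR-378c, so that reads of it cannot be assigned to one member. In the count files it reached 50.4 and 58.8 RPM, next to 577 and 561 RPM of bta-miR-378. A further prediction with the same seed, bta-19_15227, scored 1.2, had 16 pooled reads and 0.213 and 0.848 RPM.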

How the results depend on the processing

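For AGO2 over mouse, the 0 of 4 members called became 1 with DESeq2 size factors in edgeR, 1 with library totals alone and 2 with DESeq2. Over all 299 miRNA, these settings called 92, 73 and 117. The log2 fold change of miR-378a-3p passed with library totals (-1.27) and ran from -1.33 to -0.83 with a library left out. That of miR-378a-5p passed with DESeq2 size factors (1.71) and with DESeq2 (1.71), and ran from 0.93 to 2.43 with a library left out. That of miR-378d passed with DESeq2 (-1.53). For bovine over mouse, the 2 of 2 members called became 1 of 1 with identical sequences only, next to 39 of 91 pairs. Without a filter they became 3 of 3, with mmu-miR-378b paired to bta-19_15227, which has another seed. Paired by name they were again 2, but these were miR-378a-5p and miR-378c. In bovine the metabolic list had 5 of 12 called with DESeq2, 9 of 21 without a filter and 6 of 13 paired by name. Over all pairs, these settings called 88 of 150, 153 of 309 and 87 of 158. Leaving a library out also changed the number of the list called in both comparisons. The ratio of 5p to 3p reads, bovine over mouse, was 2.72 with all 3p-type rows as denominator. The lower bound of the family had means of 12954, 6272 and 569 RPM in mouse, AGO2 and bovine. No value reversed. Without a filter, all counts in AGO2 had a median log2 fold change of 2.82, and miR-378a-5p, at 1.46 there, lay below that median. With 1 library in an arm, it was assumed to vary like the other group. A replicate block on the sample number that the study gives to mouse and AGO2 libraries was added after the data were seen. With it 3 members were called, miR-378a-3p (-1.12, SE 0.24, adjusted p = 0.00695 with edgeR), miR-378a-5p (1.45, SE 0.49, 0.0452) and miR-378d (-1.65, SE 0.46, 0.0194), but not miR-378c (-0.51, 0.204), next to 121 of 299 miRNA and 10 of the metabolic list. The differences between samples 1 and 2 in mouse and in AGO2 had a correlation of 0.29 over 299 miRNA, given as a description. No source used here says that a number marks 1 animal. The calls over all miRNA, 83 in AGO2 over mouse, became 52 without mouse sample 1, and the 77 in bovine over mouse became 153 without a filter, 39 with identical sequences only and 46 to 116 with a library left out.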
